A study of Pimephales promelas with 191 samples.

Results

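Liver transcriptomes of the fathead minnow (Pimephales promelas), a freshwater fish used in aquatic toxicology, were compared in adult males between libraries collected at 48 h and at 24 h of an exposure experiment. The comparison took in every library of those times, 48 at 48 h and 47 at 24 h, which is 95 libraries; the other 96 of the series were collected at 6 and 96 h. Each time held 12 control libraries, 12 libraries of fish given 41 µg/L metformin, and 12 of fish given metformin at 41 µg/L and guanylurea at 100 µg/L together. Fish given guanylurea alone at 100 µg/L made up 11 libraries at 24 h and 12 at 48 h. The labels say nothing more of the control group, and name neither strain nor age beyond adult. They do not say whether each library came from a separate fish or tank, so the spread behind each p-value is that between libraries and may be technical.

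The liver makes most plasma proteins, stores and releases glucose and lipid, and breaks down foreign compounds, so its messenger RNA is dominated by a small number of very abundant transcripts. Metformin is a drug against type II diabetes that acts in the liver of mammals, where it lowers glucose output, and guanylurea is the product that microbes form from it. In vertebrate livers many transcripts follow the daily cycle and the time since the last meal. The collections were 24 h apart, and the labels give no clock time and no feeding schedule. Each time was 1 collection as far as the labels say, so that length of exposure, day and handling cannot be told apart in any difference given here.

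The gene table pairs its 26150 identifiers with no names, and 0 of them occur in the RefSeq gene table of the species (assembly fPimPro1.hap1.1). Genes are therefore described as groups, and 4 are given by identifier: in each direction, the 2 of smallest p among called genes with a mean of at least 1 CPM (the count scaled to a common library total) and the same direction in all 4 treatments. Hepatocyte markers could not be looked up, so the labelled tissue was not checked. Library totals ran from 12.7 M to 28.0 M counts (M, mega), and 18905 to 22376 genes had a count. Totals averaged 19.3 M ± 2.11 at 24 h (SD, n = 47) and 20.5 M ± 3.01 at 48 h (SD, n = 48). This difference had p = 0.0304 in a two-sided permutation test within treatments and an adjusted p = 0.0913 over 6 library measures. The number of genes with a count was 222 higher at 48 h on average (adjusted p = 0.0831, same permutation test). The 10 most abundant genes of a library held 30.2% of counts ± 3.18 at 24 h and 29.8% ± 4.05 at 48 h (adjusted p = 0.626, same permutation test), and time accounted for 0.658%, 1.89% and 0.359% of the spread on the first 3 principal components.

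Between 24 and 48 h, 376 of 17484 tested genes changed, of which 240 rose and 136 fell, at an adjusted p under 0.05 in edgeR's quasi-likelihood test with treatment as a covariate and Benjamini-Hochberg adjustment. This is 2.15% of the tested genes, made up of 1.37% that rose and 0.778% that fell. Most of the changes were small. The 240 rising genes had a median log2 fold change of 0.36 (quartiles 0.25 to 0.61) and a median standard error of 0.09. The 136 falling genes had a median of 0.29 in size (quartiles 0.22 to 0.43) and a median standard error of 0.08. In livers sampled whole, fewer cells of a type and less RNA per cell cannot be told apart in such a change.

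In fold terms the median riser changed 1.29-fold and the median faller 1.22-fold. A change under 1.2-fold was found in 124 of the 376 genes, 86 changed by 1.5-fold or more, 33 by 2-fold or more and 9 by 4-fold or more. The test against a fold of 1.2, in place of no change, left 13 genes, 6 higher and 7 lower. At an unadjusted p under 0.05 stood 2725 genes, 15.6% of those tested. For 76.5% of tested genes the 95% interval of the step lay within 1.5-fold, and for 92.1% within 2-fold.

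The count depended on which libraries entered. No single library moved it by more than 1.5 times, since it ran from 297 to 512 genes when each of the 95 libraries was left out in turn. Leaving out all libraries of a replicate number, 7 or 8 at a time, gave 138 to 488 genes. It left 188 genes without number 5, 138 without number 6, 202 without number 9 and 182 without number 11, while without number 1 the count rose to 488 and without number 3 to 402. Without the control libraries 58 genes passed, without metformin 341, without guanylurea 127 and without the mixture 125. Without 4 libraries that agreed poorly with the rest of their group (controls at 48 h number 12, metformin at 24 h number 3 and at 48 h number 1, mixture at 24 h number 4), 614 genes passed, 355 of them among the 376. Limma voom with quality weights called 648 genes, 313 of them among the 376.

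FMg006240 had the smallest p of all genes and was of moderate abundance, with a mean log2 CPM of 4.71. In controls its lowest, median and highest libraries held 13.8, 20.5 and 30.4 CPM at 24 h and 21.2, 31.1 and 48.0 CPM at 48 h. With metformin the values were 16.4, 19.4 and 30.2 CPM at 24 h and 21.7, 27.3 and 44.6 CPM at 48 h. In both the 48 h libraries lay higher, and 12 of 12 were above the 24 h median. With guanylurea the values were 15.7, 21.3 and 31.0 CPM at 24 h and 19.9, 28.9 and 44.5 CPM at 48 h. With the mixture they were 15.3, 18.5 and 39.8 CPM at 24 h and 21.2, 30.8 and 45.1 CPM at 48 h. The ranges of both times overlapped in all 4 treatments, with 11 of 12 guanylurea and 12 of 12 mixture libraries at 48 h above the 24 h median. Pooled over treatments it rose by 0.57 on the log2 scale, or 1.49-fold (SE 0.07 log2; edgeR adjusted p = 6.18e-08). Single treatments gave 0.65 (SE 0.14) in controls, 0.53 (SE 0.14) under metformin, 0.49 (SE 0.15) under guanylurea and 0.61 (SE 0.14) in the mixture.

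FMg014642 rose as well and stood higher in these livers, at a mean log2 CPM of 7.07. In controls its lowest, median and highest values were 35.8, 92.1 and 118 CPM at 24 h and 102, 150 and 251 CPM at 48 h, so that 10 of 12 libraries at 48 h exceeded the highest at 24 h. With metformin they were 55.1, 109 and 177 CPM at 24 h and 53.0, 179 and 281 CPM at 48 h. With guanylurea they were 51.2, 129 and 206 CPM at 24 h and 96.1, 160 and 407 CPM at 48 h. Here the groups overlapped widely, and 9 of 12 libraries at 48 h were above the 24 h median in both of these treatments. With the mixture they were 49.2, 97.3 and 158 CPM at 24 h and 69.8, 157 and 206 CPM at 48 h, with 10 of 12 above the 24 h median. Pooled over treatments it rose by 0.65 on the log2 scale (SE 0.11; edgeR adjusted p = 0.000183). Against a fold of 1.2 it did not pass (adjusted p = 0.0552 in edgeR's test against a fold). It passed in the other 28 settings that gave a value for this gene. Among these, the looser threshold for the adjusted p kept the main fit, so that pass was fixed. The gene was picked for its small p in these same libraries, which favours such passes, so they are a description.

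FMg010813 fell by 0.96 on the log2 scale (SE 0.16; edgeR adjusted p = 0.000122), to about 0.513 of its 24 h level. With guanylurea its lowest, median and highest libraries held 6.81, 27.2 and 52.6 CPM at 24 h and 6.76, 8.90 and 21.3 CPM at 48 h. With metformin they held 4.13, 22.6 and 39.9 CPM at 24 h and 5.19, 9.69 and 18.1 CPM at 48 h. In both treatments 12 of 12 libraries at 48 h were below the 24 h median, and the libraries ranged less widely at 48 h. In controls the values were 8.85, 13.0 and 35.9 CPM at 24 h and 3.42, 10.9 and 20.6 CPM at 48 h. With the mixture they were 6.96, 13.1 and 67.1 CPM at 24 h and 4.83, 8.95 and 18.2 CPM at 48 h. In these groups 8 of 12 libraries at 48 h lay below the 24 h median. The step was −0.52 in controls (95% interval −1.13 to 0.09) and −1.35 with guanylurea (−1.97 to −0.72), and the test of a difference among the 4 treatments gave an adjusted p = 0.965 in edgeR.

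FMg007992 was the most abundant of the 4, at a mean log2 CPM of 9.37 and rank 207 of the tested genes. In controls its lowest, median and highest libraries held 476, 799 and 1432 CPM at 24 h and 285, 485 and 813 CPM at 48 h. With metformin they held 344, 660 and 1081 CPM at 24 h and 307, 534 and 807 CPM at 48 h. The 48 h libraries were the lower ones, with 11 of 12 in controls and 9 of 12 with metformin below the 24 h median. With guanylurea the values were 331, 778 and 908 CPM at 24 h and 265, 501 and 762 CPM at 48 h, and 12 of 12 lay below the 24 h median. With the mixture they were 512, 831 and 1199 CPM at 24 h and 308, 607 and 892 CPM at 48 h, and 10 of 12 lay below it. Pooled over treatments it fell by 0.52 on the log2 scale (SE 0.09; edgeR adjusted p = 0.000428). It did not pass against a fold of 1.2 (adjusted p = 0.353 in edgeR's test against a fold).

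**Figure D1:**
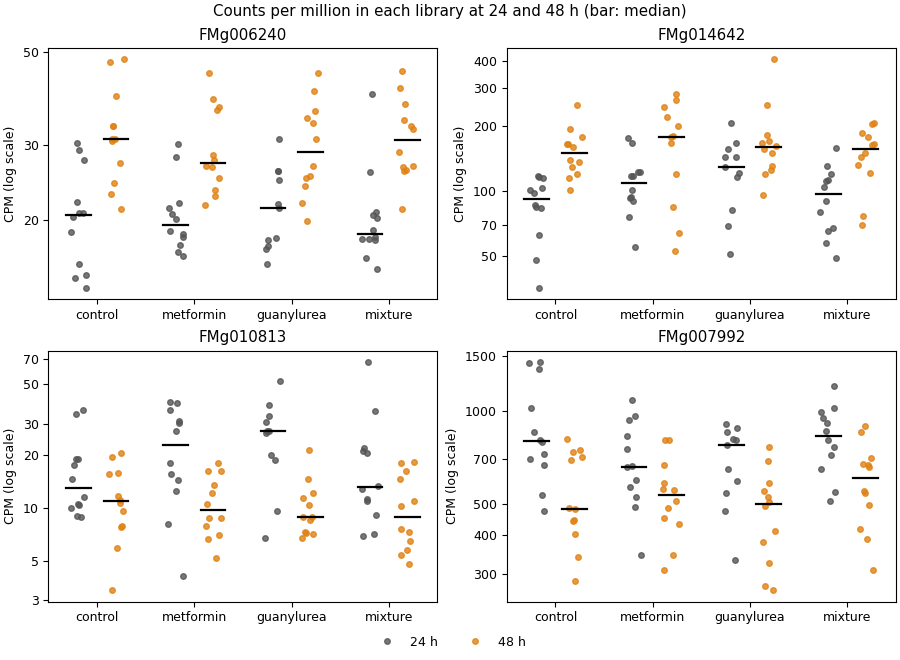
CPM (log scale) of the 4 genes given by identifier, 1 point per library, at 24 h (grey) and 48 h (orange) in each treatment, with a bar at the median. FMg006240 and FMg014642 lie higher at 48 h and FMg010813 and FMg007992 lower, and the points of both times overlap in each treatment.

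The overlap seen in these genes was general. In the median rising gene, 71.3% of all pairs of 1 library at 48 h and 1 at 24 h from the same treatment had the higher value at 48 h, and in the median falling gene 28.4% did. The highest share among risers was 88.9%, reached by FMg006240, and the lowest among fallers was 20%. The step of a rising gene was 0.84 of its spread between libraries of a group in the median, and that of a falling gene 0.79. Both groups also varied less than other genes, with a median within-group SD of 0.42 (log2 CPM) in risers and 0.37 in fallers against 0.53 over all tested genes. The test more readily calls genes of small spread, so these medians describe the called genes and are no separate finding.

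Large changes had another make-up. The 21 rising genes of 2-fold or more had a median of 4.33 CPM and a median within-group SD of 1.51, and the 12 falling ones 1.83 CPM and 1.3. Over all tested genes these medians were 5.44 CPM and 0.53. In 15 of the 21 and in 12 of the 12, 1 library held over 10% of the gene's summed CPM over the 95 libraries. Of the 219 risers and 124 fallers below 2-fold this was so in 7 and 3, and of all 17484 tested genes in 681. The control library of 48 h numbered 2 was the highest of all 95 in 9 of the 21 large risers and that numbered 6 in 5. The highest library in the 12 large fallers was number 3 of the mixture at 24 h in 4 and number 3 of metformin at 24 h in 3. Counts of 0 in at least 1 library were found in 10 of the 21 and 8 of the 12. Below 2-fold they were found in 8 of the 219 and 1 of the 124, and over all 17484 tested genes in 3218. Limma voom with quality weights called 11 of these 33 genes, but 302 of the 343 genes below 2-fold, and DESeq2 called 22 and 337.

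**Figure D2:**
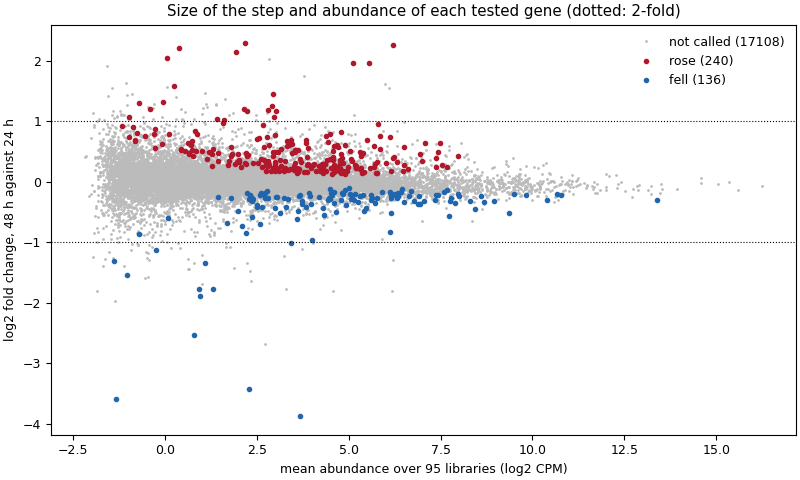
Log2 fold change of 48 h against 24 h for each tested gene against its mean log2 CPM, with the 240 genes that rose in red, the 136 that fell in blue and the rest in grey; dotted lines mark 2-fold. Called changes above 2-fold lie mostly at low abundance, and of the called genes with a mean of 100 CPM or more, 29 fell and 10 rose.

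Falling genes were more abundant than rising ones. Their median log2 CPM was 4.62 (quartiles 2.73 to 6.34), against 3.53 (2.22 to 4.78) in risers and 2.47 over all tested genes. Of the 136 fallers, 29 had a mean of 100 CPM or more, 32 were among the 1000 most abundant genes and 4 among the 100 most abundant. Of the 240 risers, 10 had 100 CPM or more, 14 were among the 1000 most abundant and 0 among the 100 most abundant. Over all 17484 tested genes 895 had 100 CPM or more. Together the fallers held 2.76% of all counts ± 0.417 at 24 h (SD, n = 47) and 2.34% ± 0.362 at 48 h (SD, n = 48), and 1 gene alone made up 1.08%. The risers held 0.496% ± 0.0823 at 24 h and 0.692% ± 0.212 at 48 h. These sums follow from the calls and are a description.

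The share of genes called grew with abundance. When the tested genes were divided into 5 equal parts by mean log2 CPM, 0.658% of the least abundant part were called, then 1.09%, 2.26% and 2.26%, and 4.49% of the most abundant part. The median size of a called change was smaller at each step up, from 0.87 to 0.53, 0.32, 0.30 and 0.28 on the log2 scale. The smallest called change was 0.55 in the least abundant part and 0.10 in the most abundant. The median standard error over all genes of a part went from 0.23 to 0.08, so that the smallest changes called among abundant genes were below the standard error of a typical rare gene. Risers outnumbered fallers in each part. From the least abundant part up they numbered 17 and 6, 30 and 8, 53 and 26, 58 and 21, and 82 and 75.

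**Figure D3:**
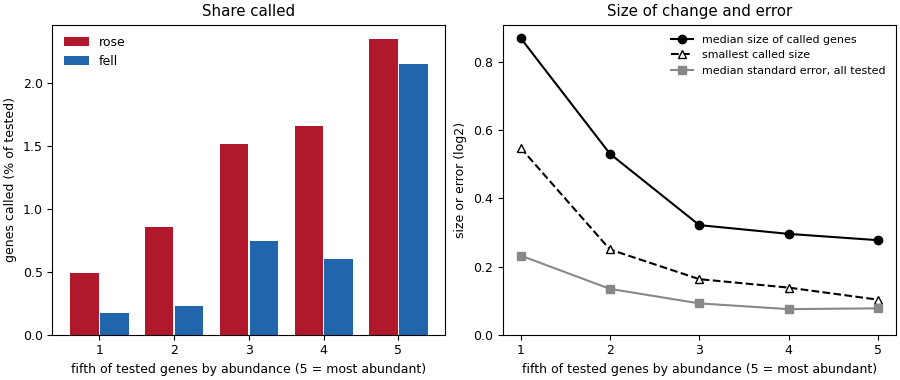
Left, percent of tested genes called as rising (red) or falling (blue) in each of 5 equal parts of the tested genes by abundance. Right, median and smallest size of the called changes and the median standard error of all tested genes (log2 units); the share called rises from 0.658% to 4.49% in total while the median called size falls from 0.87 to 0.28.

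The step was then taken in each treatment by its own contrast, with the spread estimated over all 95 libraries. In a fit with a mean per treatment and time, 61 genes passed in controls (46 higher, 15 lower), 1 under metformin (lower), 32 under guanylurea (20 higher, 12 lower) and 22 in the mixture (9 higher, 13 lower), in edgeR's quasi-likelihood test. These are 0.349%, 0.00572%, 0.183% and 0.126% of the 17484 tested genes. At an unadjusted p under 0.05 stood 2195 genes in controls, 1040 under metformin, 1249 under guanylurea and 1360 in the mixture. Fits of a treatment's own libraries alone gave other counts at an adjusted p under 0.05 in the same kind of test. These were 4 of 17162 genes in controls, 0 of 17164 with metformin, 1 of 16971 with guanylurea and 13 of 17154 in the mixture. Only genes that moved as in the other 3 treatments pooled were counted there. Of the genes called in a single treatment, 33 of the 61, 1 of 1, 7 of the 32 and 11 of the 22 were among the 376 genes of the pooled comparison. The guanylurea calls were mostly large changes of rare genes, with 28 of 32 at 2-fold or more and a median log2 CPM of 0.87. None of the 32 remained in limma voom (0 genes, 1254 at an unadjusted p under 0.05) or with the replicate number as a block (0 genes). In the same settings the mixture had 65 and 3 genes, and controls had 47 and 23. With the share of the 10 most abundant genes as a covariate 3 genes passed in controls, 1 with metformin, 2 with guanylurea and 47 in the mixture. That share averaged 31.5% ± 3.68 at 24 h and 28.7% ± 4.34 at 48 h in controls (SD, n = 12 each), and 29.9% ± 2.44 and 32.2% ± 3.64 in the mixture (SD, n = 12 each). With metformin it averaged 30.5% ± 3.1 and 29.6% ± 3.95 (SD, n = 12 each), and with guanylurea 28.8% ± 3.2 (SD, n = 11) and 28.7% ± 3.63 (SD, n = 12).

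Most called genes stood on the same side in all 4 treatments. Of the 240 risers, 216 stood higher at 48 h in all 4 treatments and the other 24 in 3 of them. Of the 136 fallers, 123 stood lower in all 4 and 12 in 3. Among all tested genes 21.5% had the same sign in all 4. Since each gene was called on these same libraries, the pooled call itself favours a shared sign. The median step of the risers was 0.40 in controls, 0.25 under metformin, 0.33 under guanylurea and 0.29 in the mixture, as differences between means of log2 CPM. The medians of the fallers were −0.36, −0.21, −0.26 and −0.27 in the same order.

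A view free of that selection comes from calling genes in 3 treatments and reading them in the fourth, whose libraries then took no part. Genes called without the controls numbered 32 risers and 26 fallers. In the control libraries 26 of the 32 stood higher and 22 of the 26 lower at 48 h, with median steps of 0.32 and −0.19. Medians in held-out libraries are differences between means of log2 CPM. Where the genes were called, the medians were edgeR's fitted log2 fold changes, which are another measure. Those were 0.53 and −0.47 without controls and 0.41 and −0.35 without metformin. Without guanylurea they were 0.48 and −0.37, and without the mixture 0.36 and −0.38. Called without metformin, 179 of 211 risers (84.8%) and 108 of 130 fallers (83.1%) kept their direction with metformin, at medians of 0.17 and −0.13. Called without guanylurea, 81 of 86 (94.2%) and 35 of 41 (85.4%) kept it, at 0.29 and −0.19. Called without the mixture, 73 of 90 (81.1%) and 22 of 35 (62.9%) kept it, at 0.11 and −0.06. Over all tested genes the direction matched in 58%, 58.3%, 60.6% and 55.9% with the same treatments held out. In the held-out control libraries, 17 of the 32 risers (53.1%) and 6 of the 26 fallers (23.1%) also reached an unadjusted p under 0.05 in the called direction, against 8.48% of all tested genes. With metformin held out 27 risers (12.8%) and 15 fallers (11.5%) did, against 3.36% of all genes. With guanylurea held out 30 (34.9%) and 12 (29.3%) did, against 5.43%, and with the mixture 17 (18.9%) and 6 (17.1%), against 6.35%. Adjusted over all genes, 0 of them passed in each held-out treatment.

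Single libraries were given a score, the mean log2 CPM of the risers minus that of the fallers, both called in the other 3 treatments. Gene list and centring differ by held-out treatment, so the score compares times within a treatment and not treatments with each other. With controls held out the score ran from −0.67 to 0.26 (median −0.31) at 24 h and from −0.71 to 1.08 (median 0.22) at 48 h. With metformin held out it ran from −0.50 to 0.24 (median −0.20) and from −0.96 to 0.78 (median 0.26). The 48 h libraries stood above the 24 h median in 10 of 12 cases in each, and 6 exceeded every 24 h library. With guanylurea held out the score ran from −1.63 to 0.91 (median −0.36) at 24 h and from −0.65 to 1.78 (median 0.27) at 48 h. With the mixture held out it ran from −0.58 to 0.14 (median −0.13) and from −0.18 to 0.65 (median 0.07). In these treatments 11 of 12 and 10 of 12 libraries at 48 h lay above the 24 h median, but 1 and 3 exceeded every 24 h library, and the groups overlapped in all 4.

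**Figure D4:**
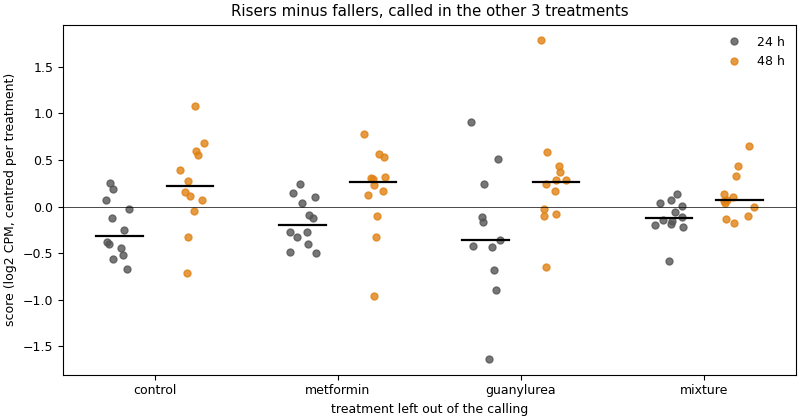
Score of each library, the mean log2 CPM of risers minus that of fallers called in the other 3 treatments, centred within the held-out treatment, at 24 h (grey) and 48 h (orange) with a bar at the median. The 48 h median is above the 24 h median in each treatment and the points overlap.

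Over the 14133 genes with a mean of at least 1 CPM, the steps of different treatments were weakly related. Pearson's r across genes was 0.224 between controls and metformin, 0.136 between metformin and guanylurea and between guanylurea and the mixture, and 0.108 between controls and the mixture. It was 0.0742 between controls and guanylurea and −0.0128 between metformin and the mixture, where Spearman's rho was 0.184 and 0.0331. Both steps of a pair come from separate libraries, but each treatment enters several pairs, so the r values are not independent. Genes are not independent replicates either. The steps had SDs across genes of 0.30 to 0.35, and their median standard error over all tested genes was 0.22 in each treatment. Error of that size lowers r, so a low r does not show that the steps differed.

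Few genes were called for a step that differed among treatments. The median standard error of the step was 0.22 (log2) in each treatment, so few calls do not show that the steps were alike. The test on the 3 differences between treatments called 8 of 17484 genes (0.0458%), with 1071 genes, or 6.13%, at an unadjusted p under 0.05 (edgeR's quasi-likelihood test). Limma voom with quality weights called 0 genes (1255 at an unadjusted p under 0.05), DESeq2 12, a fit of the libraries of all 4 times 59, and edgeR without a filter on low counts 148. The 8 genes had means of 1.98 to 68.7 CPM, and a single library held between 33.3% and 84% of a gene's summed CPM. In 8 of the 8 the mixture had the lowest step of the 4 treatments, as a difference between means of log2 CPM, and in 5 metformin had the highest. The genes were called on these same steps and libraries, so these counts are a description. The library that held the most of a gene was a metformin or control library of 48 h in 6 of them and a mixture library of 24 h in 2. Of the 376 genes of the pooled comparison 1 was among the 8, and 37 (9.84%) stood at an unadjusted p under 0.05 for the difference among treatments.

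Libraries of 6 and 96 h took no part in the calls, and show where the called genes stood outside the step. Between 6 and 96 h, 4863 of 17218 genes changed in the same kind of fit (28.2%), 2444 higher (14.2%) and 2419 lower (14%). Of the 240 genes that rose from 24 to 48 h, 113 (47.1%) were also called higher at 96 h than at 6 h, and 3 lower. Of the 134 fallers tested, 60 (44.8%) were called lower at 96 h and 1 higher. The median log2 fold change from 6 to 96 h was 0.25 in risers (205 of 240 above 0), −0.20 in fallers (28 of 134 above 0) and 0.02 over all genes. Abundant genes were called more often in that comparison too. In the most abundant of the 5 parts, 51.2% of risers were called higher, against 13.1% of all genes, and 57.3% of fallers lower, against 25.2%. In the least abundant part 3 of 17 risers were called higher, against 9.51% of all genes of that part, and 1 of 5 fallers lower, against 3.1%.

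The levels of the called genes at the other times are given as a description. The calls widen the gap between 24 and 48 h, so whether the course bends at those times was not tested. Levels were set against the midpoint of the 24 and 48 h means, which the calls push to neither side if both times vary alike. The risers' share of all counts had an SD of 0.0823% at 24 h and 0.212% at 48 h. The calls may therefore shift the midpoint, and this was not tested. The risers stood at a median of −0.05 (log2 CPM) at 6 h and 0.17 at 96 h, beside −0.17 at 24 h and 0.17 at 48 h. At 6 h 95 of 240 lay above the midpoint (39.6%, against 44.3% of all tested genes), and at 96 h 219 of 240 (91.2%, against 49.2%). The fallers stood at 0.10 at 6 h and −0.11 at 96 h, beside 0.14 and −0.14, with 93 of 136 above the midpoint at 6 h (68.4%) and 36 at 96 h (26.5%). Over all tested genes the medians were −0.02 at 6 h and 0.00 at 96 h.

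The lowest of the 4 time means was the 24 h one in 179 of the 240 risers, and the highest was the 48 h one in 104. In fallers the 24 h mean was the highest of 4 in 73 of 136 and the 48 h mean the lowest in 79. A steady course in the order of the times was seen in 26 risers and 28 fallers. Calls on 24 and 48 h favour extremes at those times, so these counts are a description. All 4 genes given by identifier changed from 6 to 96 h in the direction of their step. FMg006240 did so by 0.40 (SE 0.08, adjusted p = 7.58e-05), FMg014642 by 0.47 (SE 0.14, adjusted p = 0.00644), FMg010813 by −0.50 (SE 0.16, adjusted p = 0.00979) and FMg007992 by −0.70 (SE 0.09, adjusted p = 2.78e-10), all log2 fold changes in edgeR's quasi-likelihood test.

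**Figure D5:**
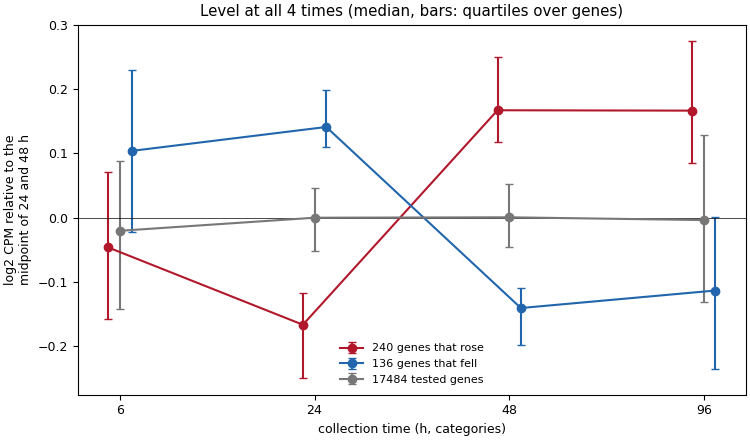
Median log2 CPM at 6, 24, 48 and 96 h relative to the midpoint of 24 and 48 h, over the 240 genes that rose (red), the 136 that fell (blue) and all tested genes (grey), with quartiles over genes as bars. Risers stand at −0.05 at 6 h and 0.17 at 96 h, fallers at 0.10 and −0.11; the values at 24 and 48 h follow from the calls.

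The step from 24 to 48 h held fewer called genes than its neighbours in time. In fits of the same form, 1303 of 17211 genes passed between 6 and 24 h (7.57%) and 1626 of 17422 between 48 and 96 h (9.33%). These comparisons share the 24 h or the 48 h libraries with the step described here and span 18 and 48 h, and the difference in counts was not tested.

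Within groups, the called genes also varied together from library to library. After the mean of each treatment and time was removed, the mean Pearson correlation between pairs of risers over the 95 libraries was 0.124, and between pairs of fallers 0.0987. Between a riser and a faller it was −0.0765, and between any 2 tested genes 0.000717. The first component of these deviations held 16.1% of the variance of the risers and 13.4% of that of the fallers, against 11% over all tested genes. Risers and fallers were called and sorted by direction on these same libraries, which can favour such correlations. The tested genes as a whole were not sorted, so their value is not a like comparison. The correlations also share library depth and scaling, and are given as a description.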

How the data were processed

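RNA of male liver was extracted with Tri-Reagent and sequenced as stranded mRNA libraries, per the labels' protocols. The authors deposited expected counts (estimates that need not be whole) of 26150 genes and 47578 transcripts, with 1 column per library and 0 columns unused. The tools, per the submitters' processing notes, included RSEM 1.3.1, Bowtie2 2.3.5 and bcl2fastq 1.8.4. Build, annotation and strand setting were not given in the sources used here. RSEM divides reads shared by near-identical genes by an estimate, so such copies have uncertain counts. No depth scaling had been applied to the deposited counts.

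Counts were rounded to whole numbers on reading, and how many values this changed was not measured. The test was that of edgeR 4.0.16 (R 4.3.3), after filterByExpr (minimum count 10, minimum total 15), TMM scaling and a robust quasi-likelihood fit. An adjusted p is Benjamini-Hochberg over all genes tested, with calls under 0.05. The pooled step used treatment and time, and the steps per treatment and their difference used 8 group means. The 96 h against 6 h comparison and the other time pairs were fitted like the pooled step. Log2 CPM used a prior count of 2, and fitted fold changes of rare genes depend on edgeR's own prior count. Standard errors were taken as the log2 fold change divided by the square root of its F value. Library measures were compared by 100000 permutations of time within treatment (NumPy 2.4.6). Limma 3.58.1 (voom with quality weights), DESeq2 1.42.0, other scalings, filters, covariates, thresholds and left-out libraries were alternatives; leaving out each single library was added after the results were seen. The edgeR fits were tested on simulated data. Over 517 pairs of libraries, each pair of the same treatment and time, chi-square per degree of freedom was at least 33.7, so none agreed within sampling noise.

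The comparison, its tests and the rule for the genes given by identifier were chosen with earlier results of these data known. The rule took, in each direction, the 2 called genes of smallest p with a mean of at least 1 CPM and 1 sign in all 4 treatments, with 199 rising and 117 falling genes to choose from. Lists of named genes and markers were not tested, since 0 identifiers matched the 64593 genes of the RefSeq table.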

Additional observations from a re-analysis of the deposited data

Results flagged for a closer look

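The difference of the step among the 4 treatments passed its own test in 8 genes, which were picked out for that reason. Their steps, as differences between means of log2 CPM, ran from −0.58 to 2.36 in controls, from −0.10 to 2.45 with metformin, from −0.76 to 1.15 with guanylurea and from −2 to −0.09 with the mixture. For each gene 1 library held at least 33.3% of the summed CPM. Without the 4 libraries of low agreement, 3 of which (control at 48 h number 12, metformin at 48 h number 1, mixture at 24 h number 4) held the most of 1 of these genes each, 2 genes passed. Limma voom with quality weights called 0 (1255 at an unadjusted p under 0.05), and without replicate number 4 edgeR called 1. No separate search was made, gene by gene, for samples far from the rest of their group.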

How the results depend on the processing

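The 4 genes given by identifier kept their direction in 29 other settings and without each of the 95 libraries. The looser threshold and the test against a fold of 1.2 kept the fold changes of the main fit, so direction was fixed there. Of the calls of these 4 genes 2 were lost, both against a fold of 1.2. They were picked for small p and a shared direction in these same libraries, which favours this outcome, so it is a description. The pooled count of 376 moved by over 1.5 times to 691 at an adjusted p under 0.10, 13 against a fold of 1.2, 648 in limma voom, 614 without the libraries of low agreement, 58 without controls, 127 without guanylurea and 125 without the mixture. It ran from 138 (number 6) to 488 (number 1) without each replicate number, of which 137 and 329 were among the 376, and from 297 to 512 without each library. Counts for single treatments moved more. For controls (61 genes) they were 97 without a filter on low counts, 23 with the replicate block, 3 with the share of the 10 most abundant genes, 121 without the libraries of low agreement, 23 transcripts, 35 without guanylurea, 36 without the mixture, 152 at 0.10 and 114 in DESeq2, and 18 to 160 without each replicate number. For metformin (1 gene) they were 6 without a filter, 3 at a mean of at least 1 CPM, 0 with the replicate block, 3 with the log2 total, 0 without the libraries of low agreement, 2 without guanylurea, 4 at 0.10, 5 in the fit of all libraries, 0 in limma voom (1217 at an unadjusted p under 0.05) and 2 in DESeq2, and 0 to 3 without each number. For guanylurea (32 genes) they were 317 without a filter, 0 with the replicate block, 7 with the log2 total, 2 with the share of the 10 most abundant genes, 1 transcript, 3 without controls, 3 without metformin, 6 without the mixture, 68 at 0.10, 78 in the fit of all libraries and 0 in limma voom (1254 at an unadjusted p under 0.05), and 2 to 47 without each number. For the mixture (22 genes) they were 40 without a filter, 3 with the replicate block, 47 with the share of the 10 most abundant genes, 37 without the libraries of low agreement, 5 transcripts, 11 without guanylurea, 52 at 0.10, 36 in the fit of all libraries, 65 in limma voom and 49 in DESeq2, and 1 to 31 without each number. Genes whose step differed among treatments (8) numbered 148 without a filter, 16 at a mean of at least 1 CPM, 0 with the replicate block, 5 with the log2 total, 2 without the libraries of low agreement, 26 transcripts, 2 without controls, 4 without metformin, 3 without guanylurea, 0 without the mixture, 59 in the fit of all libraries and 0 in limma voom, and 1 to 12 without each number. The causes were not tested. The replicate block left 322 pooled calls, 299 of them among the 376, and 4888 calls between 6 and 96 h against 4863. Same-numbered libraries of a treatment mostly deviated together only weakly, with a median r of 0.0527 over 47 pairs (−0.226 to 0.562). In 13 pairs r was over 0.1, and 6 of 47 correlated best with their own number. How many would do so with no pairing was not worked out. The main fits did not take the numbers as pairs. The share of higher calls was 63.8%, and ran from 46.2% (against a fold of 1.2) to 72% (without the mixture), and no scaling moved it by over 10 points or moved the median of all genes by over 0.1. Small changes were harder to see among the least abundant genes, where called changes were 0.55 or more on the log2 scale. Whether depth or spread between libraries set this limit was not tested.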
